A study of Rattus norvegicus with 15 samples.

Results

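HSP90 and its co-chaperones were represented by 9 genes of the 37367 genes in the table, Hsp90aa1, Hsp90ab1, Ahsa1, Stip1, St13, Cdc37, Fkbp4, Ptges3 and Chordc1. They were chosen by name as the cytosolic HSP90 chaperones and the proteins that work with them, with earlier results of these data known. The values that were in view were the FPKM values at 24 h and at each delivered dose. For that reason the levels and differences of the 9 genes are given here as descriptions without a p-value. All 9 genes passed the filter on low values, a mean of 0.5 FPKM or more in the 15 libraries.

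HSP90 is an abundant chaperone that binds nearly folded proteins, its clients, and releases them through a cycle of ATP binding and hydrolysis. Clients are first handed over from HSP70 or brought by a kinase adaptor, and a changing set of co-chaperones starts, speeds up or slows down the cycle. Many clients are kinases, nuclear receptors and other signalling proteins. Part of the HSP90 system belongs to the heat shock response, in which the transcription factor HSF1 binds repeats of the letters GAA and TTC near its target genes.

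The cells were BMECs in primary culture from the cerebral microvessels of Sprague Dawley rats (Spraque-Dawley in the labels), taken from littermates of both sexes at 2 to 3 weeks of age. There were 5 groups of 3 libraries: control cells, labelled as cultured for 12 h and handled like the rest but without x-rays, and cells at 12 h and at 24 h after exposure to 5 Gy or to 20 Gy. No control of 24 h was used here, so for the later groups the time after exposure and the time in culture cannot be told apart. The study's methods call the libraries of a group biological replicates, and the labels do not say which animals or cultures each library came from, so p-values measure the spread between these libraries.

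The depth recovered from the FPKM values was 5.44 to 7.49 gigabases per library, lowest in a library of 24 h after 5 Gy. Against the label, 8 of the 10 endothelial markers in the table, Cdh5, Cldn5, Kdr, Tek, Tie1, Vwf, Erg and Emcn, stayed below 1 FPKM in every library. All 6 fibroblast markers were present, and their summed FPKM was 1798 to 1987 in control libraries, 1437 to 1547 and 1273 to 1378 at 12 h after 5 Gy and 20 Gy, and 284 to 314 and 272 to 326 at 24 h. Most of the lower sum lay on the collagen genes Col1a1, Col1a2 and Col3a1, as Col1a1 averaged 516 FPKM in control cells and 27.0 and 31.4 FPKM at 24 h. Dcn averaged 195 FPKM in control cells and 82.3 and 82.8 FPKM at 24 h, and Pdgfra 52.1, 60.8 and 51.6 FPKM, so the markers did not move together. The endothelial sum was 23.3 to 30.4 in control libraries, 15.3 to 21.7 at 12 h and 20.4 to 27.3 at 24 h. Most of this sum was Slc2a1, which averaged 23.6 FPKM in control cells, 14.2 and 13.9 at 12 h and 19.3 and 17.3 at 24 h. Flt1 averaged 2.84 FPKM in control cells and 2.72 to 4.09 FPKM in exposed groups. Pecam1 and Abcb1a of the endothelial list had no values under these names. The pericyte sum was 55.2 to 63.4 in control libraries, 42.9 to 48.3 at 12 h and 15.9 to 27.4 at 24 h, with Rgs5, Kcnj8 and Abcc9 of its 6 markers below 1. The astrocyte sum of 4 markers was 9.80 to 12.4 in control libraries and 18.7 to 32.0 in exposed libraries, with Gfap and Aqp4 below 1. The difference lay on Aldh1l1 alone, at 9.52 FPKM in control cells and 20.8 to 24.1 FPKM in exposed groups, while Slc1a3 was at 1.79 FPKM and 0.918 to 2.36 FPKM. All 5 microglia markers, the neuron markers Rbfox3 and Snap25, and the oligodendrocyte markers Mbp, Mog and Olig2 stayed below 1. Over all libraries the sum of the 4 neuron markers was 3.17 to 12.9 and that of the 4 oligodendrocyte markers 0.254 to 1.22. In bulk RNA, fewer cells of a type and less RNA per cell cannot be told apart, and the part of these shifts in the results was not tested.

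Differences are given on the log2(FPKM + 1) scale with the standard error (SE) of a limma fit over all 17895 genes tested, and levels as FPKM, which is divided by transcript length and library size. A gene was called at a Benjamini-Hochberg adjusted p below 0.05 together with a change of at least 1.5-fold. At 12 h, 0 of the 9 genes were called at either dose. Among all genes tested, 4.98% were called higher and 4.96% lower after 5 Gy, and 4.90% higher and 3.64% lower after 20 Gy. At 24 h, 6 of the 9 genes were called higher and 0 lower at each dose: Hsp90aa1, Hsp90ab1, Stip1, St13, Fkbp4 and Chordc1. The background was 20.5% called higher and 20.8% lower after 5 Gy, and 17.0% higher and 23.3% lower after 20 Gy. Because the genes were chosen with these contrasts in view, nothing is read from their counts. The median difference of the 9 genes from control was -0.07 and -0.01 at 12 h and 0.85 and 0.75 at 24 h, beside medians over all genes tested of 0.03, 0.01, -0.05 and -0.14.

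**Figure D1:**
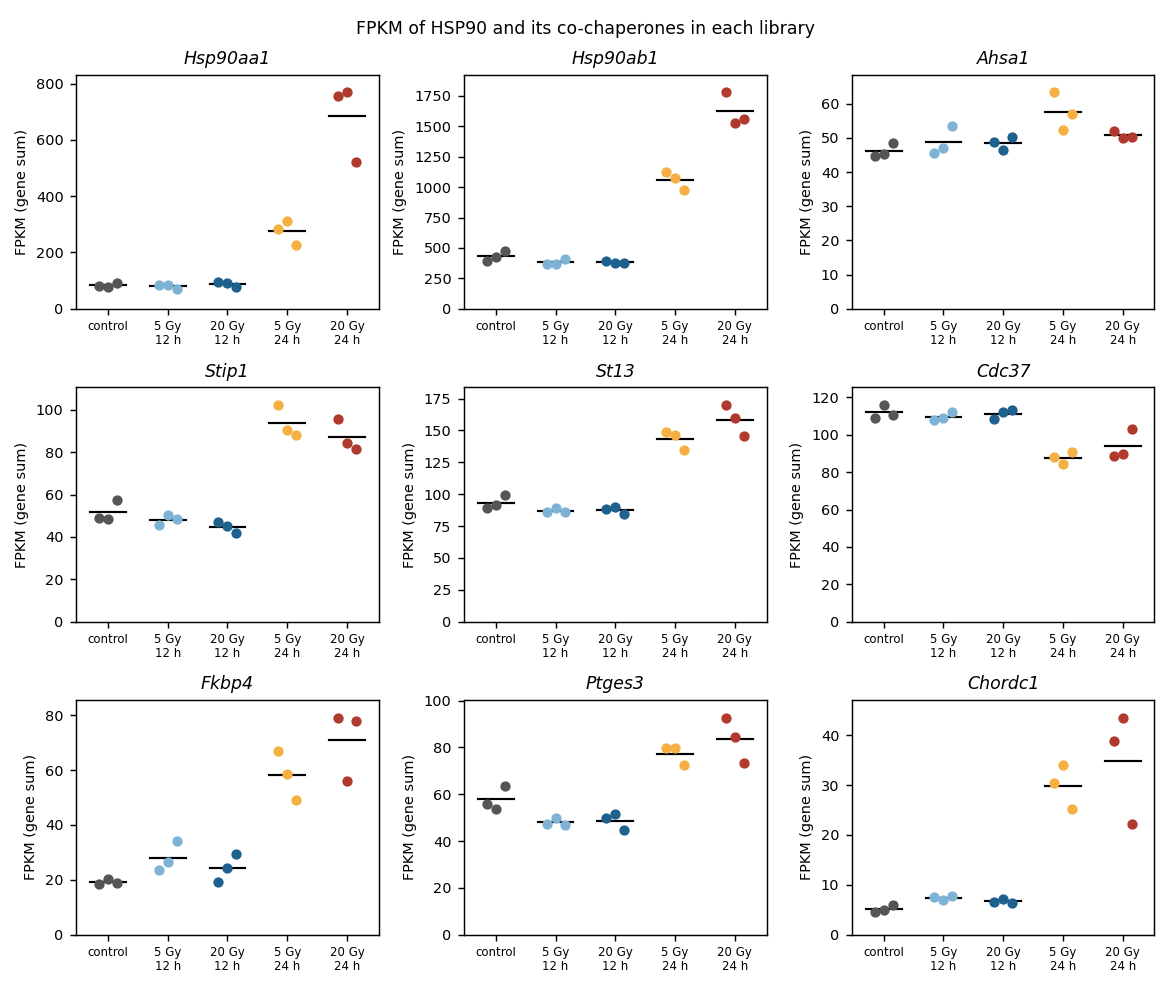
FPKM of each gene (vertical axes, gene sums, from 0) in the 3 libraries of each group (points, replicates 1 to 3 from left to right) with the group mean (line). Hsp90aa1 and Hsp90ab1 stood highest at 24 h after 20 Gy with 24 h after 5 Gy next, Chordc1, Fkbp4, Stip1 and St13 were high at 24 h at both doses, and Cdc37 was lower at 24 h.

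Hsp90aa1 encodes HSP90 alpha, the stress-inducible cytosolic form. In Rnor_6.0 it lay at chr6:135107271-135112775 on the minus strand. Its level was 81.2, 76.8 and 92.7 FPKM in the control libraries. At 12 h it was 83.1, 84.7 and 70.6 after 5 Gy and 95.2, 89.9 and 77.8 after 20 Gy. These 3 groups overlapped, and their order was not set beyond the spread between libraries. At 24 h Hsp90aa1 was at 284, 313 and 227 FPKM after 5 Gy and at 757, 770.4 and 523 FPKM after 20 Gy. Every 24 h library lay above every control and 12 h library, and every 20 Gy library at 24 h lay above every 5 Gy library at 24 h. The differences of Hsp90aa1 from control were 1.70 ± 0.159 (SE) after 5 Gy and 3.00 ± 0.159 after 20 Gy at 24 h.

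Hsp90ab1 encodes HSP90 beta, the form that most cells make all the time, and lay at chr9:17817791-17823163 on the plus strand. It was the most abundant of the 9 genes in every group, at 395, 424 and 477 FPKM in the control libraries. After 5 Gy it was at 367, 372 and 410.5 FPKM at 12 h and at 1128, 1077 and 975 FPKM at 24 h. After 20 Gy it was at 392, 379.8 and 374 FPKM at 12 h and at 1784, 1528 and 1564 FPKM at 24 h. All 3 libraries of 12 h after 20 Gy lay below the control libraries, with a difference of -0.17 ± 0.0928 (SE), and the 5 Gy libraries overlapped with control. At 24 h the differences of Hsp90ab1 were 1.29 ± 0.0928 after 5 Gy and 1.91 ± 0.0928 after 20 Gy, and the groups did not overlap with control or with each other. Reads of both HSP90 genes may be shared with each other and with their processed pseudogenes, and how the counting split such reads is not given in the sources used here.

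The summed FPKM of the 2 HSP90 genes averaged 516 ± 48.3 (SD, n = 3) in control cells, 463 ± 16.5 and 469 ± 17.7 at 12 h, 1335 ± 116 at 24 h after 5 Gy and 2309 ± 227 after 20 Gy. The share of this sum from HSP90 alpha was 17.0%, 15.3% and 16.3% in the control libraries. At 12 h it was 18.5%, 18.5% and 14.7% after 5 Gy, overlapping with control, and 19.6%, 19.1% and 17.2% after 20 Gy, all above control. It was 20.1%, 22.5% and 18.9% at 24 h after 5 Gy and 29.8%, 33.5% and 25.1% after 20 Gy. The shares at 24 h after 5 Gy overlapped with those at 12 h after 20 Gy. Every library of 24 h after 20 Gy held a larger alpha share than any library of the other groups, since the highest share elsewhere was 22.5%. The beta gene still gave most of the HSP90 messenger RNA in every library.

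The co-chaperones that load clients onto HSP90 did not share a single pattern. Stip1, or HOP, bridges HSP70 and HSP90, and lay at chr1:222274133-222293148 on the minus strand. Its level was 48.8, 48.5 and 57.5 FPKM in control libraries, 45.7, 50.2 and 48.5 FPKM at 12 h after 5 Gy, and 47.2, 45.2 and 41.8 FPKM at 12 h after 20 Gy. The 12 h libraries after 20 Gy lay just below control, and those after 5 Gy overlapped with it. At 24 h Stip1 was at 102, 90.5 and 88.1 FPKM after 5 Gy and at 95.5, 84.2 and 81.7 FPKM after 20 Gy. The doses overlapped, and both stood above control by 0.85 ± 0.0909 (SE) and 0.75 ± 0.0909.

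St13, or HIP, binds the ADP form of HSP70 and works beside HOP, and lay at chr7:122585771-122635731 on the minus strand as a single annotated transcript. Its level was 89.3, 91.5 and 99.5 FPKM in control libraries and 84.2 to 90.3 FPKM in the 6 libraries of 12 h. At 24 h St13 was at 149, 146 and 135 FPKM after 5 Gy and at 170.2, 159.6 and 146 FPKM after 20 Gy. All 24 h libraries lay above control, by 0.61 ± 0.0718 (SE) after 5 Gy and 0.75 ± 0.0718 after 20 Gy, and the doses overlapped.

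Cdc37, the adaptor that brings kinases to HSP90, was the only one of the 9 genes with lower mean levels at 24 h than in control cells. It lay at chr8:22160922-22173797 on the minus strand and was at 109, 116 and 111 FPKM in control libraries and 108 to 113 FPKM in the 6 libraries of 12 h. At 24 h Cdc37 was at 88.2, 84.6 and 90.5 FPKM after 5 Gy and at 88.7, 90.0 and 103 FPKM after 20 Gy. Every 24 h library was below every control library, yet the differences of -0.35 ± 0.0655 (SE) and -0.25 ± 0.0655 were under 1.5-fold. They moved towards 0 with the scaling, to -0.21 and -0.18 with libraries rescaled to the same sum and to -0.09 and -0.02 with quantile normalization.

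Ahsa1 encodes AHA1, which stimulates the ATPase of HSP90, and lay at chr6:111296417-111304224 on the plus strand. It was at 44.8, 45.4 and 48.5 FPKM in control libraries and at 45.7 to 53.5 FPKM in the 6 libraries of 12 h. At 24 h Ahsa1 was at 63.5, 52.4 and 57.1 FPKM after 5 Gy and at 52.0, 49.9 and 50.2 FPKM after 20 Gy. The 24 h libraries lay above control at both doses but by only 0.31 ± 0.0804 (SE) and 0.13 ± 0.0804, and all 20 Gy libraries were below the 5 Gy libraries. The gene sum held only the annotated transcript, because the locus carried a second gene name. With the 2 unnamed forms of the locus included, Ahsa1 averaged 48.3 ± 2.21 FPKM (SD, n = 3) in control cells, 71.9 ± 3.76 at 24 h after 5 Gy and 68.2 ± 4.30 after 20 Gy, with differences of 0.56 and 0.49. The doses then overlapped at 24 h, at 76.0, 68.7 and 70.8 FPKM after 5 Gy and 69.2, 63.5 and 71.9 FPKM after 20 Gy.

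Fkbp4 encodes FKBP52, an immunophilin of the late complex with steroid hormone receptors, and lay at chr4:161748993-161757447 on the minus strand. Its level was 18.6, 20.4 and 18.7 FPKM in control libraries. At 12 h it was 23.4, 26.4 and 34.3 FPKM after 5 Gy, all above control by 0.51 ± 0.181 (SE), and 19.3, 24.1 and 29.3 FPKM after 20 Gy, which overlapped with control. At 24 h Fkbp4 was at 67.0, 58.5 and 49.2 FPKM after 5 Gy and at 79.2, 56.0 and 78.1 FPKM after 20 Gy. The difference of Fkbp4 from control was 1.54 ± 0.181 after 5 Gy and 1.82 ± 0.181 after 20 Gy, and the doses overlapped.

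Ptges3 encodes p23, which holds HSP90 in its closed, ATP-bound state, and lay at chr7:2479240-2497422 on the plus strand. It was at 56.0, 53.8 and 63.6 FPKM in control libraries and at 44.8 to 51.5 FPKM in the 6 libraries of 12 h, which all lay below control. At 24 h Ptges3 was at 79.8, 79.8 and 72.4 FPKM after 5 Gy and at 92.8, 84.7 and 73.4 FPKM after 20 Gy, all above control. The differences of -0.26 and -0.24 at 12 h and of 0.42 and 0.52 at 24 h, each with an SE of 0.0938, were under 1.5-fold. Between 12 h and 24 h Ptges3 passed the limit, at 0.68 after 5 Gy and 0.76 after 20 Gy.

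Chordc1 encodes CHP1, also called morgana, which binds HSP90 through its zinc-binding CHORD domains, and lay at chr8:17421557-17446165 on the plus strand. It was the scarcest of the 9 genes in every group, at 4.54, 4.91 and 5.87 FPKM in control libraries. At 12 h Chordc1 was at 7.49, 6.96 and 7.79 FPKM after 5 Gy and at 6.60, 7.10 and 6.36 FPKM after 20 Gy, and all 6 libraries lay above control. At 24 h it was at 30.4, 34.0 and 25.3 FPKM after 5 Gy and at 38.8, 43.5 and 22.1 FPKM after 20 Gy. The group means at 24 h were 5.85 times and 6.82 times that of control, with differences of 2.34 ± 0.196 (SE) and 2.50 ± 0.196. The doses overlapped at 24 h, and replicate 3 was the lowest library at both doses. The depth behind Chordc1 was the least of the 9 genes, between 583 and 7703 read lengths of 150 bases per library, against 38208 to 216344 for Hsp90ab1.

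**Figure D2:**
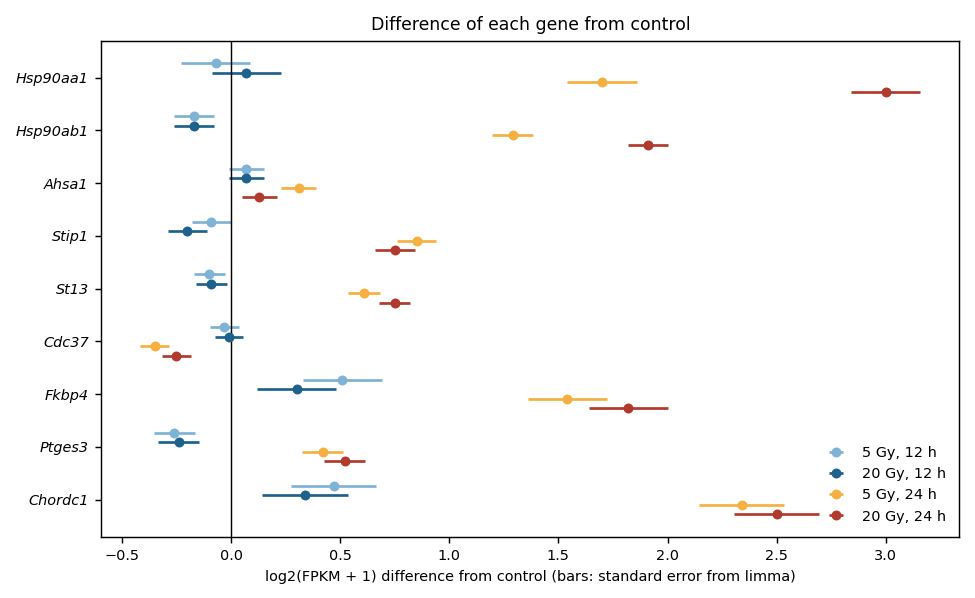
Difference of each gene from control on the log2(FPKM + 1) scale (horizontal axis) for the 4 exposed groups (colours), with points for the estimate and bars for the SE of the limma fit. The 12 h points lay between -0.26 and 0.51, and the 24 h points between -0.35 for Cdc37 and 3.00 for Hsp90aa1.

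From 12 h to 24 h, 7 of the 9 genes were called higher and 0 lower at each dose, the 6 genes named above and Ptges3. The background was 17.1% of all genes higher and 19.3% lower after 5 Gy, and 14.1% higher and 22.1% lower after 20 Gy. The median difference of the 9 genes between the times was 0.94 at both doses, beside -0.08 and -0.15 over all genes tested. The differences do not use the control levels, but the control libraries enter the shared estimate of spread behind the SE and the calls. The largest difference between the times was that of Hsp90aa1 after 20 Gy, 2.93, followed by Chordc1 at 2.17 and Hsp90ab1 at 2.08.

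Between the doses, 0 of the 9 genes were called at 12 h, where 0.117% of all genes were higher after 20 Gy than after 5 Gy and 0.00559% lower. At 24 h, 2 of the 9 genes, Hsp90aa1 and Hsp90ab1, were called higher after 20 Gy, beside 0.956% of all genes called higher and 1.46% lower. Hsp90aa1 differed by 1.30 ± 0.159 (SE) and Hsp90ab1 by 0.62 ± 0.0928 between the doses. The other 7 genes lay between -0.18 for Ahsa1 and 0.28 for Fkbp4, and 6 of them overlapped between the doses. Ahsa1 did not overlap on its gene sum but did with its unnamed forms included. The share of all genes that overlapped was not computed, so nothing is read from this count. The value of Hsp90ab1 was close to the 1.5-fold limit. It passed below the limit without replicate 3 of 24 h after 5 Gy (0.56), without replicate 1 of 24 h after 20 Gy (0.55), with libraries rescaled to the same sum (0.55) and with quantile normalization (0.47). In a fit of only the 6 libraries of 24 h, 0 of the 9 genes were called.

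The interaction term of the fit compares the dose difference between the times, and 0.553% of all genes had an adjusted p below 0.05 in it. For the 9 genes the term is a description, since the values at 24 h were in view when they were chosen. The dose difference of Hsp90aa1 was 1.16 ± 0.225 (SE) larger at 24 h than at 12 h. For Hsp90ab1 this value was 0.62 ± 0.131, and for the co-chaperones it lay between -0.17 and 0.48.

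The ratio of HSP90 to co-chaperone levels therefore differed between the groups and between the co-chaperones. In control cells, the summed HSP90 FPKM per FPKM of the co-chaperone was 10.0 ± 0.283 (SD, n = 3) for Stip1. It was 14.3 ± 0.951 at 24 h after 5 Gy and 26.5 ± 0.893 after 20 Gy. For Cdc37 the ratio was 4.61 ± 0.465 in control cells, 15.2 ± 1.72 at 24 h after 5 Gy and 24.8 ± 4.25 after 20 Gy. For Fkbp4 the ratio was 26.9 ± 3.14, 23.1 ± 1.77 and 33.3 ± 7.25 in these groups, and for Chordc1 it was 101 ± 3.97, 44.9 ± 3.52 and 70.9 ± 21.3. At 12 h after 5 Gy and 20 Gy the ratio was 62.5 ± 2.86 and 70.3 ± 3.83 for Chordc1 and 16.8 ± 2.61 and 20.0 ± 4.91 for Fkbp4. The ratio to Chordc1 was thus lower than in control cells at 12 h as well as at 24 h, while the ratio to Cdc37 was 4.22 at 12 h at both doses and higher only at 24 h.

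The transcripts behind the sums showed a further pattern at 24 h. At the Hsp90aa1 locus the table held the annotated transcript, with 11 exons and 2758 bases, and 4 unnamed forms assembled from the reads. The 4 forms had the same ends but 7 to 10 exons and 3255 to 3779 bases, so they held bases that are intron in the annotated transcript. Their summed level was 1.56 FPKM on average in control cells, 0.891 and 0.754 FPKM at 12 h, 37.4 FPKM at 24 h after 5 Gy and 231 FPKM after 20 Gy. The share of Hsp90aa1 FPKM in these forms was 1.64%, 2.49% and 1.53% in the control libraries and 0.554% to 1.23% in the 6 libraries of 12 h. It was 14.1%, 15.3% and 10.7% at 24 h after 5 Gy and 39.4%, 33.2% and 26.6% after 20 Gy. The groups of 24 h did not overlap with each other or with the rest. The annotated transcript alone was at 82.0 ± 8.45 FPKM (SD, n = 3) in control cells, 237 ± 31.8 at 24 h after 5 Gy and 453 ± 65.7 after 20 Gy. Its differences from control were 1.52 and 2.45, and its difference between the doses was 0.93, in place of 1.30 for the gene sum.

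Over all genes, 452 of the 9554 genes with a mean FPKM of at least 5 had such a form. The median share in it was 13.9% in control cells, 12.9% at 24 h after 5 Gy and 9.76% after 20 Gy. The share was higher than in control cells in 43.6% of these genes at 24 h after 5 Gy and in 38.9% after 20 Gy. By the change in share at 24 h after 20 Gy, Hsp90aa1 ranked 13 among the 452, and 14 genes were at least 30 percentage points above control.

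Longer forms with the same ends and fewer exons were also seen at Stip1 and Ahsa1. At Stip1 a form of 13 exons and 4387 bases, against 14 exons and 2101 bases for the annotated transcript, was at 0.824 ± 0.403 FPKM (SD, n = 3) in control cells, 13.6 ± 2.46 at 24 h after 5 Gy and 13.6 ± 4.31 after 20 Gy. Its share of Stip1 was 1.66% in control cells, 14.8% and 15.5% on average. At Ahsa1 the share of 2 such forms was 4.37% in control cells, 19.9% at 24 h after 5 Gy and 25.4% after 20 Gy. At Chordc1 the share of 2 such forms varied more within groups, from 0.221% to 10.2% in control libraries, 13.6% to 27.1% at 12 h after 20 Gy and 3.78% to 16.3% at 24 h after 20 Gy. At Fkbp4 the share of 1 such form was 14.0%, 2.08% and 2.10% in the control libraries. The control mean of 6.05% thus rested on replicate 1, and the share averaged 0.522% and 0.672% at 24 h. Forms with other ends are not part of these shares. At Fkbp4 a form of 7 exons and 2368 bases averaged 0.510 FPKM in control cells and 18.2 ± 12.8 and 18.6 ± 13.7 at 24 h. A form of 5 exons and 2665 bases averaged 0.234 FPKM in control cells and 3.16 ± 1.04 and 16.0 ± 0.238 at 24 h. Whether these 2 forms held intron bases was not tested. At Hsp90ab1, St13, Cdc37 and Ptges3 no form had the same ends, more bases and fewer exons. Forms with other ends held intron bases at Hsp90ab1 and Ptges3. Levels for Ptges3 are given below, and levels of such forms of Hsp90ab1 are not given here. The Hsp90ab1 form that follows has the same ends, so it does not show whether forms with other ends changed. A form of Hsp90ab1 with the same ends, the same 11 exons and 3094 bases in place of 2338 was at 8.12 ± 6.86 FPKM in control cells and 9.35 ± 5.20 FPKM at 24 h after 20 Gy.

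At Ptges3 the annotated transcript was listed at 0 in every library, and an unnamed form of 8 exons and 2139 bases carried 96.8% of the gene in control cells. This form stayed at 55.9 ± 4.99 FPKM (SD, n = 3) in control cells, 61.2 ± 3.57 at 24 h after 5 Gy and 56.5 ± 7.13 after 20 Gy, differences of 0.13 and 0.01. Most of the difference in the Ptges3 sum lay on partial forms. One of 2 exons and 7104 bases went from 0.616 ± 0.0801 FPKM in control cells to 7.40 ± 0.943 and 12.6 ± 1.56, and one of 4 exons and 1529 bases from 1.2 ± 0.122 FPKM to 8.59 ± 0.511 and 14.3 ± 1.49. The form of 7104 bases lay inside the span of the form of 2139 bases, so it held bases that are intron there. Whether the form of 1529 bases held intron bases was not tested.

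At Fkbp4 the annotated transcript carried 89.0% of the gene in control cells and 62.0% and 51.1% at 24 h after 5 Gy and 20 Gy. It was at 17.1 ± 2.26 FPKM (SD, n = 3) in control cells, 35.1 ± 4.63 at 24 h after 5 Gy and 35.3 ± 1.31 after 20 Gy, so the annotated transcript alone gave differences of 0.99 and 1.01. At Chordc1 the annotated transcript was at 0.281 ± 0.251 FPKM in control cells and 4.39 ± 1.70 and 3.68 ± 1.05 at 12 h. An unnamed form of 12 exons was at 4.11 ± 0.521 FPKM in control cells and 1.23 ± 1.26 and 0.950 ± 0.850 at 12 h, so most of the Chordc1 signal lay on one form in control cells and on the other at 12 h. On the annotated transcript alone, Chordc1 differed from control by 2.04 and 1.86 at 12 h and was called at both doses, in place of 0.47 and 0.34 for the gene sum. How the assembly divides reads between overlapping forms and how much intron sequence the RNA held were not tested.

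**Figure D3:**
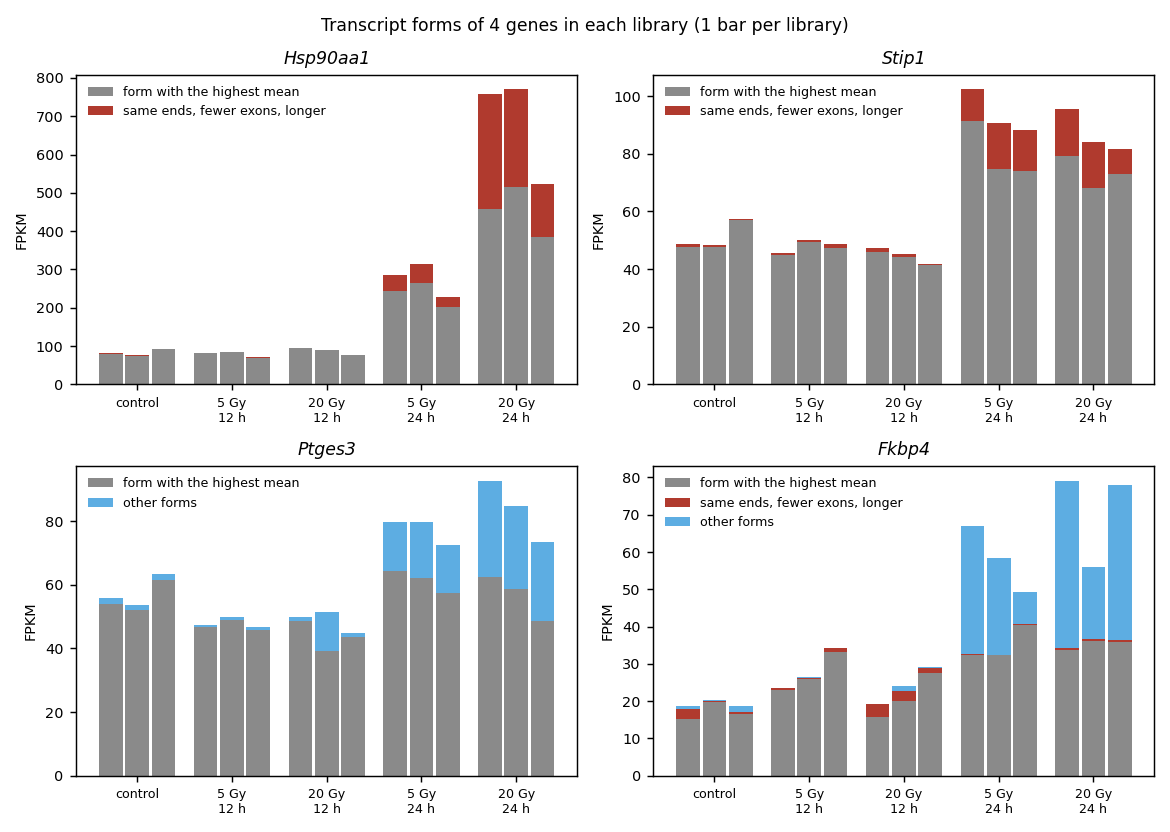
FPKM of the transcript forms of Hsp90aa1, Stip1, Ptges3 and Fkbp4 (vertical axes, stacked from 0), 1 bar per library in replicate order within each group. The red part, forms with the same ends as the main form but fewer exons and more bases, was 26.6% to 39.4% of Hsp90aa1 at 24 h after 20 Gy and at most 2.49% in control and 12 h libraries.

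Promoter sequences from RefSeq (GRCr8), from 250 bases before to 50 bases after the gene start, were at hand for 7 of the 9 genes. They were searched for the heat shock element letters, as 3 alternating units on either strand (GAANNTTCNNGAA or TTCNNGAANNTTC) and as 2 units (GAANNTTC or TTCNNGAA). Each 3-unit match also holds 2-unit matches. Of 33469 promoters of this length, 0.798% held the 3-unit letters and 15.9% the 2-unit letters. Chordc1 alone of the 7 genes held the 3-unit letters, and its stretch ran to 5 alternating units, which 3 of the 33469 promoters held. Stip1, Fkbp4 and Cdc37 held a single 2-unit match, and Hsp90ab1, Ahsa1 and Ptges3 held neither in this window. The 4 matched stretches are shown so that the letters can be compared. Capitals mark the matched letters, and each sequence is read 5′ to 3′ on the strand of the gene.
Chordc1: ccgGAACGTTCGGGAAGATTCCTGAAgca
Stip1: ctagtaggTTCCAGAAggcggcgc
Fkbp4: cttctctaGAAAGTTCtccgctcc
Cdc37: gcgggaacTTCCAGAAggccgcac
The Chordc1 stretch lay at chr8:23650828-23650856, with its capitals from base 11 to base 33 counted from 1 at the gene start, and so inside the transcribed region. The Stip1 window lay at chr1:213657647-213657670, with the match ending on the last base before the start. The matches of Fkbp4 (chr4:163398040-163398063) and Cdc37 (chr8:27967051-27967074) began 137 and 136 bases before the start. These coordinates are of GRCr8 and cannot be set against the Rnor_6.0 positions given above. A match is a description of letters, does not show binding and was not tested against the levels of the genes.

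The rest of the HSP90 machinery was described by a list of 35 further co-chaperones, paralogs and assembly factors, of which 33 were tested. This list and those of client, HSP70-side and cold-induced genes below were chosen with earlier results of these data known. The p-values given for genes of these lists are therefore no independent evidence. Most of it stayed below the limit. At 12 h, 2 genes were called higher after 5 Gy, Fkbpl and Flcn, and 1 after 20 Gy, Fkbpl, with 0 lower. At 24 h, 6 were called higher and 2 lower after 5 Gy, and 5 higher and 3 lower after 20 Gy. As shares of the 33 genes these lie near or below the background over all genes. That background was 20.5% higher and 20.8% lower after 5 Gy and 17.0% higher and 23.3% lower after 20 Gy. The higher calls at both doses include Hsp90b1, whose sum lacks its main form, as described below. With unnamed rows of loci with several names included, 5 were higher and 2 lower after 5 Gy, and 4 higher and 3 lower after 20 Gy. The median difference of the list from control at 24 h was 0.03 after 5 Gy and -0.03 after 20 Gy, beside -0.05 and -0.14 over all genes tested.

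Cacybp, which encodes a CS domain protein related to p23 and SGT1, rose from 15.2 ± 4.38 FPKM (SD, n = 3) in control cells to 74.8 ± 6.76 at 24 h after 5 Gy and 67.1 ± 10.7 after 20 Gy. Its differences were 2.26 ± 0.214 (SE) and 2.10 ± 0.214, with adjusted p of 1.7e-06 and 3.4e-06 in the limma fit. Fnip2 and Flcn, whose products form a complex that binds HSP90, rose by 1.54 and 1.43 after 5 Gy and by 1.40 and 1.36 after 20 Gy, with limma adjusted p of 6.2e-05, 2.2e-06, 1.4e-04 and 3.7e-06. Tomm70, the mitochondrial import receptor that docks HSP90, rose by 0.74 and 0.61 (limma adjusted p of 7.9e-06 and 4.2e-05).

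Fkbp5 encodes FKBP51, the close relative of FKBP52 in receptor complexes, and stood opposite to Fkbp4. It fell from 221, 226 and 204 FPKM in control libraries to 89.7, 121 and 110.3 FPKM at 24 h after 5 Gy and to 104, 113 and 103 FPKM after 20 Gy. The differences of Fkbp5 were -1.03 ± 0.188 (SE) and -1.02 ± 0.188, with adjusted p of 4.3e-04 and 4.7e-04 in the limma fit. Telo2, of the TTT complex that works with HSP90 on large kinases, fell by 0.82 after 5 Gy and by 1.5 after 20 Gy (limma adjusted p of 0.00764 and 1.1e-04). Dnajc7, a co-chaperone of HSP70 and HSP90, fell by 0.64 after 20 Gy (limma adjusted p of 1.8e-05). Tsc1, a slow-cycle co-chaperone and tumour suppressor gene, rose by 0.70 after 5 Gy (limma adjusted p of 0.00657) and stood at 0.55 after 20 Gy, under the limit.

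Between the doses, 0 of the 33 genes were called by limma at 12 h or at 24 h, where 2 and 3 had an unadjusted p below 0.05. The median of the list between the doses at 24 h was -0.08, beside -0.07 over all genes tested. Hsp90b1, the endoplasmic reticulum paralog, was called higher at 24 h by 0.98 and 0.97 on named rows that reached only 0.845 to 2.64 FPKM on average. Its main form was left out of the sum because the locus holds a second name. With that form included Hsp90b1 averaged 230.0 ± 15.5 FPKM (SD, n = 3) in control cells, 298 ± 29.4 at 24 h after 5 Gy and 256 ± 83.0 after 20 Gy, which overlapped with control. At 12 h it was as high, at 291 ± 89.8 after 5 Gy and 317 ± 24.0 after 20 Gy. One library of 12 h after 5 Gy held the ubiquitin ligase gene Stub1 at 0.843 FPKM, where the other 2 held 63.2 and 63.9 FPKM.

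A list of 20 genes of known HSP90 clients, of which 18 were tested, held calls in both directions. At 12 h Met, a receptor kinase gene, was called higher by 0.64 after 5 Gy and 0.66 after 20 Gy (limma adjusted p of 0.00171 at both doses). At 24 h, 10 were called higher and 2 lower after 5 Gy, and 9 higher and 3 lower after 20 Gy, with medians of 0.70 and 0.62. The background was again 20.5% higher and 20.8% lower after 5 Gy, and 17.0% and 23.3% after 20 Gy. Ahr, the aryl hydrocarbon receptor gene, rose most, from 2.22 FPKM in control cells to 22.0 and 20.0 FPKM, by 2.84 ± 0.0983 (SE) and 2.70 ± 0.0983 (limma adjusted p of 3.8e-10 and 5.6e-10). Akt1, a survival kinase gene, fell from 88.8 FPKM to 29.5 and 22.9 FPKM, by 1.56 and by 1.91 (limma adjusted p of 1.4e-08 and 2.3e-09). Chuk, Egfr and Met rose by 1.63, 1.17 and 1.14 after 5 Gy, and Cdk4 fell by 0.62 at both doses. Between the doses at 24 h, 0 of the 18 were called by limma, and 3 had an unadjusted p below 0.05.

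The HSP70 side of the system and the heat shock factors, a list of 11 genes of which 9 were tested, held the largest differences described here. This list too was chosen with earlier results known, so its p-values are no independent evidence. At 12 h, 0 were called higher, and Dnajb1 was called lower after 5 Gy, by 0.69 (limma adjusted p of 7.7e-04). At 24 h, 7 of the 9 were called higher after 5 Gy and 8 after 20 Gy, and 5 were higher after 20 Gy than after 5 Gy, where the background was 20.5%, 17.0% and 0.956% of all genes called higher. Hspa1b, an inducible HSP70 gene, went from 10.4 ± 1.10 FPKM (SD, n = 3) in control cells to 1354 ± 286 at 24 h after 5 Gy and 4957 ± 573 after 20 Gy, a difference between the doses of 1.89 ± 0.139 (SE) with a limma adjusted p of 1.8e-05. Hsph1, an HSP110 gene, went from 11.9 ± 1.59 FPKM to 369 ± 46.7 and 936 ± 94.7. Hspa8, the constant HSP70 gene, had no sum under the naming rule because its locus holds several names, and with the unnamed forms of the locus it averaged 393 ± 23.6 FPKM in control cells and 1047 ± 110 and 1808 ± 172 at 24 h. Hsf1 itself was at 19.1 ± 1.82 FPKM in control cells, 20.2 ± 1.62 at 24 h after 5 Gy and 18.7 ± 3.82 after 20 Gy and was not called. The median difference between the doses at 24 h was 1.34 for this list and 0.14 for the 9 HSP90 genes, beside -0.07 over all genes tested. Rbm3, a gene induced by cold, was lower than control in all 4 exposed groups, by 0.84 and by 0.90 at 12 h and by 1.17 and by 1.04 at 24 h (limma adjusted p of 4.0e-04, 2.9e-04, 3.1e-06 and 8.8e-06).

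**Figure D4:**
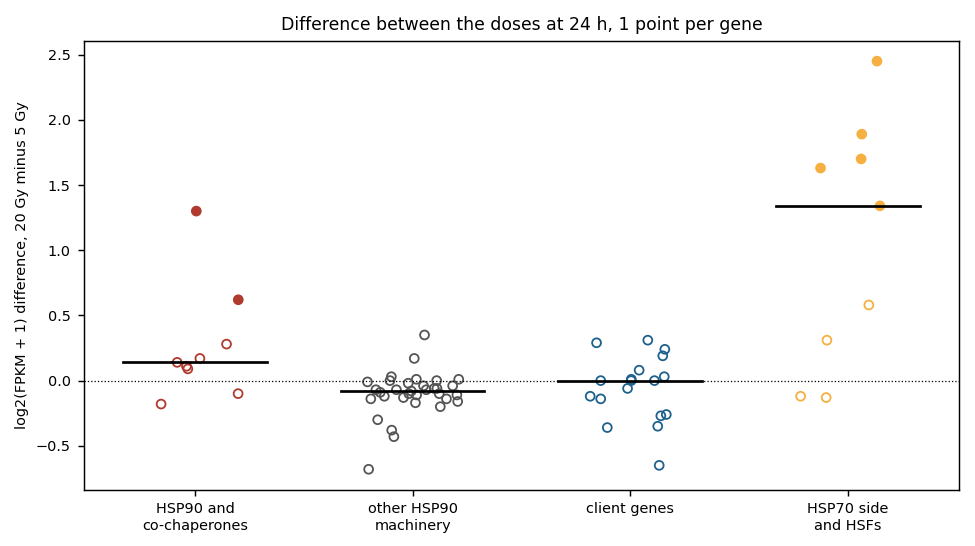
Difference between 20 Gy and 5 Gy at 24 h on the log2(FPKM + 1) scale (vertical axis), 1 point per tested gene of each list, with the list median (line) and genes that passed adjusted p and 1.5-fold filled. The 5 filled points of the HSP70 side lay between 1.34 and 2.45 and the 2 of HSP90 at 0.62 and 1.30, and the other 2 lists had 0.

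Genes with a profile like that of the 9 genes were ranked by the root mean square distance between each gene and the median of the 9 centred profiles over the 15 libraries. This median profile was -0.27 in control cells, -0.36 and -0.42 at 12 h, and 0.58 and 0.52 at 24 h. Among 8889 other named genes with a mean FPKM of at least 5, the nearest were Abraxas2, Atf1, Cltc, Riok3, Hsf2, Sde2, Ptpn2, Srsf4, Cers6 and Zcchc8, at distances of 0.0732 to 0.102. Cltc, the clathrin heavy chain gene, was at 131 FPKM in control cells and at 245 and 242 FPKM at 24 h after 5 Gy and 20 Gy. Hsf2, a second heat shock factor gene, was at 9.76 FPKM in control cells and at 17.2 and 15.8 FPKM at 24 h. Of the 9 genes themselves, Stip1 was nearest to the median profile at 0.0395 and Hsp90aa1 farthest at 0.844, with 7296 other genes nearer than Hsp90aa1. The median profile thus described Stip1, St13 and Ptges3, and hardly Hsp90aa1, Chordc1 or Cdc37.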

How the data were processed

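Poly-A RNA of cultured rat BMECs was sequenced in 15 libraries, 3 in each of 5 groups. Per the labels and the methods of the study, the authors used HISAT2 to map the reads to Rnor_6.0 and StringTie to assemble transcripts, and the deposited values are FPKM for each transcript in 1 table. Whether strand was used in counting is not given in the sources used here. Rows with a gene name, and unnamed rows of a locus with that single name, were summed per gene. Unnamed rows of the 909 loci with several names were left out, 4738 transcripts in all. Genes whose mean was 0.5 FPKM or more were fitted with limma 3.58.1 (R 4.3.3) after the transformation log2(FPKM + 1), with 1 mean per group and a variance prior with a trend. FPKM are not counts, so no count model was used. On this scale the change of low genes is understated. FPKM times length came in whole steps for 83.9% to 86.6% of low values (tolerance 0.1 of a step), which gave the depth.

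The members and the lists were chosen with earlier results of these data known. Named genes were all 9 members, called list genes (at most 4 each way) and the 10 genes most like the members. Stub1, Hsp90b1, Hsf1, Hsph1 and further transcripts were named after their values were seen, and the search for 5 units followed that for 3. The fit was tested on simulated data. Alternatives were a pseudocount of 0.1, other filters, rescaling to the same sum, quantile normalization, a prior without the trend, fits of only the 2 groups compared, the replicate number as a block, other limits, other gene sums and leaving out each library. Same-numbered libraries correlated at -0.18 to 0.23 in their deviations over all pairs of groups. Between the doses they correlated at 0.05 to 0.23 at 12 h and 0.06 to 0.16 at 24 h. Libraries of unlike number correlated there at -0.19 to 0.06 and at -0.10 to 0.02. The main fit did not take the numbers as pairs, and the block was an alternative to it. Results of the study other than this table were not analysed here. The promoter windows are RefSeq sequences.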

Additional observations from a re-analysis of the deposited data

Results flagged for a closer look

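For 5 genes of the HSP70 side, the difference between 20 Gy and 5 Gy was larger at 24 h than at 12 h in the interaction term of the limma fit, fitted over all genes. The list of these genes was chosen with earlier results of these data known, so their p-values are no independent evidence. On the log2 scale the interaction was 1.42 for Hspa1b, 1.61 for Hsph1, 1.5 for Dnajb1, 1.75 for Bag3 and 2.15 for Hspb1, with limma adjusted p of 0.00636, 0.00567, 8.8e-04, 8.8e-04 and 0.0257. In all 5 genes every library of 24 h after 20 Gy lay above every library of 24 h after 5 Gy. The share of all genes with such a separation was not computed, so nothing is read from this count. For Hsp90aa1 the term was 1.16, a description with no test, because the gene was chosen with values of this contrast in view. Groups of 3 libraries are too small for a check of single libraries that stand apart.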

How the results depend on the processing

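Depth limits the low forms and Chordc1 most, and 3 libraries per group limit every SE. The scarcity of endothelial markers bears on all values. The single control time bears on comparisons of 24 h with control or with 12 h. Reads that may be shared between HSP90 copies bear on Hsp90aa1, Hsp90ab1 and the shares and ratios built on them. No member difference that was called in the main fit changed sign, and counts were not scored for a reversal. Differences that were not called could change sign. With 1 library left out, that of Chordc1 between the doses at 24 h ran from -0.02 to 0.46. Among alternatives that kept all libraries, 835 of 928 member differences moved by less than the spread between replicates, and 249 of 286 counts stayed within 1.5 times. Other filters, the prior without the trend, fits of only the 2 groups, the replicate block and other limits cannot move a difference. They can change only the calls. The count of 835 is thus in large part fixed in advance, and no stability is read from it.

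The following counts moved further. Between the doses at 24 h, the members called were 1 with rescaling, quantile normalization, a 2-fold limit or the transcript with the highest mean, and 0 in a fit of only the 2 groups, which has fewer libraries. At 12 h, 1 member was called at each dose, on the highest transcript or on named rows alone, which is Chordc1. With a 2-fold limit, 4 members were called between the times at each dose. The machinery count was 2 at 12 h after 20 Gy with a pseudocount of 0.1 or rescaling. With a 2-fold limit the machinery counts were 0 and 0 at 12 h, 4 and 5 at 24 h, and 3 and 5 between the times, and the client count was 5 at each dose at 24 h. With adjusted p alone the machinery counts were 5 and 6 at 12 h, 19 and 17 at 24 h, 1 between the doses at 24 h, and 15 and 16 between the times, and the client count between the doses at 24 h was 1. With the highest transcript, 4 machinery genes were called between the times after 20 Gy and 7 client genes at 24 h after 5 Gy. With named rows alone the machinery counts were 1 at 12 h and 4 at 24 h after 5 Gy and 5 and 3 between the times, and the client counts were 5 and 4 at 24 h. Causes were not tested.

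Leaving out each library in turn gave 1 to 2 members between the doses at 24 h, 1 to 2 machinery genes at 12 h after 5 Gy and 1 to 2 after 20 Gy. The 1 between the doses came without replicate 3 of 24 h after 5 Gy or without replicate 1 of 24 h after 20 Gy. The machinery count was 1 at 12 h after 5 Gy without control replicate 1 or without its own replicate 3, and 2 at 12 h after 20 Gy without control replicate 2 or without its own replicate 1. With the replicate block, 6 members were called at 24 h at each dose and 2 between the doses, and the block changed no count beyond 1.5 times. Giving unnamed rows of loci with several names to the name with the most exons, chosen after seeing the data, moved no count beyond 1.5 times.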
